A study of Mus musculus with 4 samples.

Results

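The CD45 compartment of MC38 colon carcinomas, that is, the tumor's leukocytes, was compared between 1 pool of wild-type (WT) mice and 1 pool of Lrrc25-/- mice. A barcode entered the compartment if it had at least 300 detected genes, at least 500 unique molecular identifiers (UMIs, each standing for 1 captured RNA molecule), at most 20% mitochondrial UMIs and at least 1 UMI of Ptprc, the gene that encodes CD45. This rule kept 24756 of the 36206 barcodes of the MC38 libraries (the series holds 59732), 12042 of WT and 12714 of Lrrc25-/- hosts. Both groups carried the same mouse colon carcinoma line, MC38, received no treatment (the labels give "none") and were taken on day 26 after inoculation. They differed by the host genotype. Age, sex and the construction of the Lrrc25 allele are not given in the labels. Each library is 1 pool of tumor pieces (100 mm3 each) from 3 mice, so differences between mice cannot be seen and no test is possible. Bead-isolated CD45+ cells were added back to the dissociated tumor at 5 parts to 1, which sets the share of CD45 cells in a library and leaves tumor and stromal cells in it.

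Lrrc25 encodes a transmembrane protein with leucine-rich repeats that is found chiefly on myeloid cells. Tumor macrophages arise largely from circulating Ly6C-high monocytes. As these mature in the tumor they turn on the complement genes C1qa, C1qb and C1qc and, depending on the signals they meet, express antigen presentation genes and T cell-attracting chemokines under interferon-gamma, or Arg1, Spp1 and matrix proteases in a state linked to wound repair. CD8 T cells recognise tumor peptides and kill with perforin and granzymes, and they are a main source of interferon-gamma together with natural killer (NK) cells.

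Cells were divided by gates on lineage genes and not by clustering. The C1q gate took cells with at least 5 UMIs over C1qa, C1qb and C1qc and at least 0.5% of their UMIs in these genes. The Cd3 gate took at least 2 UMIs over Cd3d, Cd3e and Cd3g. The Ncr1 gate took at least 1 Ncr1 UMI with fewer than 2 UMIs over the Cd3 genes, so it excludes Cd3 gate cells by definition. The S100a8/9 gate took at least 10 UMIs and 1% of UMIs over S100a8 and S100a9, and the Cd79a gate at least 2 UMIs. Cells in several gates formed a class of their own. Those in no gate were split, after the data had been seen, into tumor-gene cells (3 or more UMIs over a list of 13 MC38 or epithelial genes), C1q-low cells (2 or more C1q UMIs and at least 0.1% of UMIs) and a remainder. The class boundaries are cuts through continuous values: 13.6% of WT and 10.2% of Lrrc25-/- compartment cells had between 0.4% and 0.6% of their UMIs in the C1q genes.

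The labels call the cells of both libraries tumor cells, but 69.7% of the kept barcodes of the WT pool and 76.1% of the Lrrc25-/- pool had a Ptprc UMI. Thinned to 1000 UMIs per cell, with 2387 and 1687 shallower cells left out, these shares were 41.2% and 43.2%. Of tumor-list barcodes with no C1q UMI, 17.2% (125 of 728, 14.5 to 20.1) of WT and 25.7% (44 of 171, 19.4 to 33.0) of Lrrc25-/- barcodes had a Ptprc UMI (exact binomial 95% intervals, counting error only). Those with a Ptprc UMI had a median of 16310.0 and 16511 UMIs, against 4771 and 6114 for the cells of the compartment. Marker sums by gate are given next. Each list includes the genes that define its gate, so a high sum there follows in part from the gate and does not test it. The summed level of 9 macrophage markers was 10500.3 to 12565 CPM in the C1q gate (CPM is a gene's UMIs per 1e6 UMIs of the cells summed; here and below the WT pool comes first and the Lrrc25-/- pool second), that of 22 T cell markers was 6271 to 6639 CPM in the Cd3 gate and that of 16 neutrophil markers was 73035 to 104590 CPM in the S100a8/9 gate. The Lrrc25-/- library was deeper: the libraries held 105338548 and 118098009 UMIs, the compartment 66370194 and 86642600 UMIs, and its cells a median of 1912 and 2185 genes. A single Ptprc UMI admitted 26.3% of the WT and 21.7% of the Lrrc25-/- compartment cells. Of the tumor-gene cells, which had a median of 16385.5 and 20203 UMIs, 63.2% and 63.0% had only 1 Ptprc UMI, so this class is admitted mainly by single molecules, and it made up 16.2% and 15.3% of the compartment's UMIs. The pools shared 247 barcodes, 112 of them within the compartment.

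Lrrc25 itself (ENSMUSG00000049988; mm10, chromosome 8, 70616155 to 70621483, plus strand) was at 67.4 to 1.49 CPM, which is 4471 against 129 UMIs and a ratio of 0.0221, 95% interval 0.0184 to 0.0263. Intervals on ratios and shares are exact Poisson or binomial (Clopper-Pearson) intervals and cover counting error only. It was detected in 26.9% and 1.01% of cells. The C1q gate carried 65.1% of the difference (106 to 2.21 CPM), the C1q-low cells 19.7% (66.5 to 1.60 CPM) and the Cd3 gate 1.32% (10.5 to 0.300 CPM).

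T cells took a larger part of the Lrrc25-/- compartment. The Cd3 gate held 1001 WT and 1758 Lrrc25-/- cells, which is 8.31% and 13.8% of cells and a ratio of shares of 1.66 (1.54 to 1.80). The Ncr1 gate, which marks NK cells, held 63 and 98 cells (0.523% and 0.771%, ratio 1.47, 1.06 to 2.06). The S100a8/9 gate, which marks neutrophils, held 83 and 116 cells (ratio 1.32, 0.990 to 1.78), and the Cd79a gate of B lineage cells held 7 and 18 (ratio 2.44, 0.971 to 6.90). The intervals of these last gates include 1. Cells in several gates went from 82 to 204 (ratio 2.36, 1.82 to 3.08). With no doublet caller run, these cannot be divided into doublets and cells that truly carry both sets of genes.

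The share of cells in the C1q gate was nearly equal, 43.4% and 42.9% (ratio 0.989, 0.952 to 1.03), but the spread of C1q levels within the compartment was not. Cells with 1% or more of their UMIs in the C1q genes made up 12.3% of the WT and 22.2% of the Lrrc25-/- compartment. Those from 0.5% to under 1% made up 32.4% and 22.7%. Those above 0 and under 0.2% made up 20.5% and 27.7%. Cells from 0.2% to under 0.5% made up 20.7% and 16%, and those with no C1q UMI 14.1% and 11.4%. The Lrrc25-/- pool thus held more cells in the top bin and in the lowest bin above 0, and fewer in the middle bins and at 0. The equal share at 0.5% depends on that cut: with a cut at 1% the ratio of C1q gate shares was 1.78, and with a cut at 0.2% it was 0.914. Median depth moved with the high bin (5129 UMIs in WT and 7449 in Lrrc25-/- cells), and its part in the shift was not tested. The C1q-low class held 2960 and 2270 cells (24.6% and 17.9%, ratio 0.726, 0.687 to 0.767), the tumor-gene class 634 and 667 (ratio 0.996) and the remainder 1987 and 2127 (ratio 1.01). In a sequenced pool, fewer cells of a type and less RNA per cell cannot be told apart from a compartment sum alone. Class values are therefore given for part of the genes below. Each class is itself a mix of cells, so a class sum has the same limit within the class. For genes given only as compartment sums, fewer cells and less RNA per cell were not told apart at all.

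**Figure D1:**
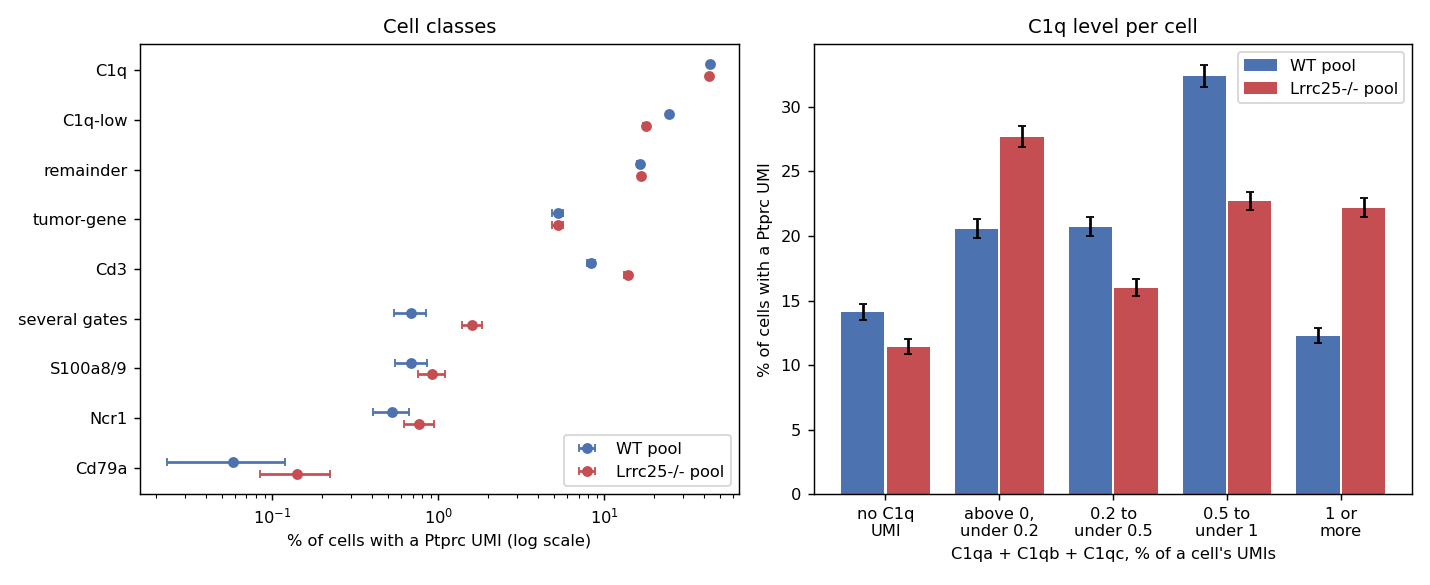
Left, the share of each class among cells with a Ptprc UMI on a log scale, with 95% binomial intervals for the WT pool (blue) and the Lrrc25-/- pool (red). The C1q points coincide at 43.4% and 42.9% while Cd3 moves from 8.31% to 13.8%. Right, cells by the percentage of their UMIs in C1qa, C1qb and C1qc, with the top bin rising from 12.3% to 22.2%.

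A gene was called higher or lower by size alone: at least 20 CPM in either pool, at least 50 UMIs over both, and a 1.5-fold or greater difference between CPM values to which 1 had been added. All folds below are log2 values of Lrrc25-/- over WT on that scale. Of 6218 genes with enough signal in the whole compartment, 76 were higher (1.22%) and 107 lower (1.72%) in the Lrrc25-/- pool, and the median fold was -0.01. Higher calls were 41.5% of the total, and 57.1% under TMM scaling (105 higher and 79 lower), which moved the median of all genes by 0.06. Among the 68 named genes run under the alternatives, TMM scaling took Ptgs2, Cxcl3, Gpnmb and Gzme back under the fold limit. In the C1q gate 36 genes were higher (0.624%) and 150 lower (2.6%) of 5771. In the Cd3 gate 185 were higher (2.89%) and 179 lower (2.8%) of 6391.

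Higher and lower genes were led by different classes. For each gene the compartment difference was divided among classes by the class's contribution to the CPM. Among the 76 higher genes the leading class was the Cd3 gate for 36, the C1q gate for 20 and cells in no gate for 18. Among the 107 lower genes it was cells in no gate for 68, the C1q gate for 38 and the Cd3 gate for 1. With the no-gate cells split, the C1q gate led for 72 of the lower genes, C1q-low cells for 18, tumor-gene cells and the remainder for 7 each and the Cd3 gate for 3. Changes in class shares made a median of 9.55% of the difference for higher genes and 1.24% for lower genes, and over 50% for 5 genes, all of them higher. Of the 76 higher genes, 25 passed 1.5-fold in the C1q gate, the Cd3 gate and the no-gate cells alike, as did 31 of the 107 lower genes.

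**Figure D2:**
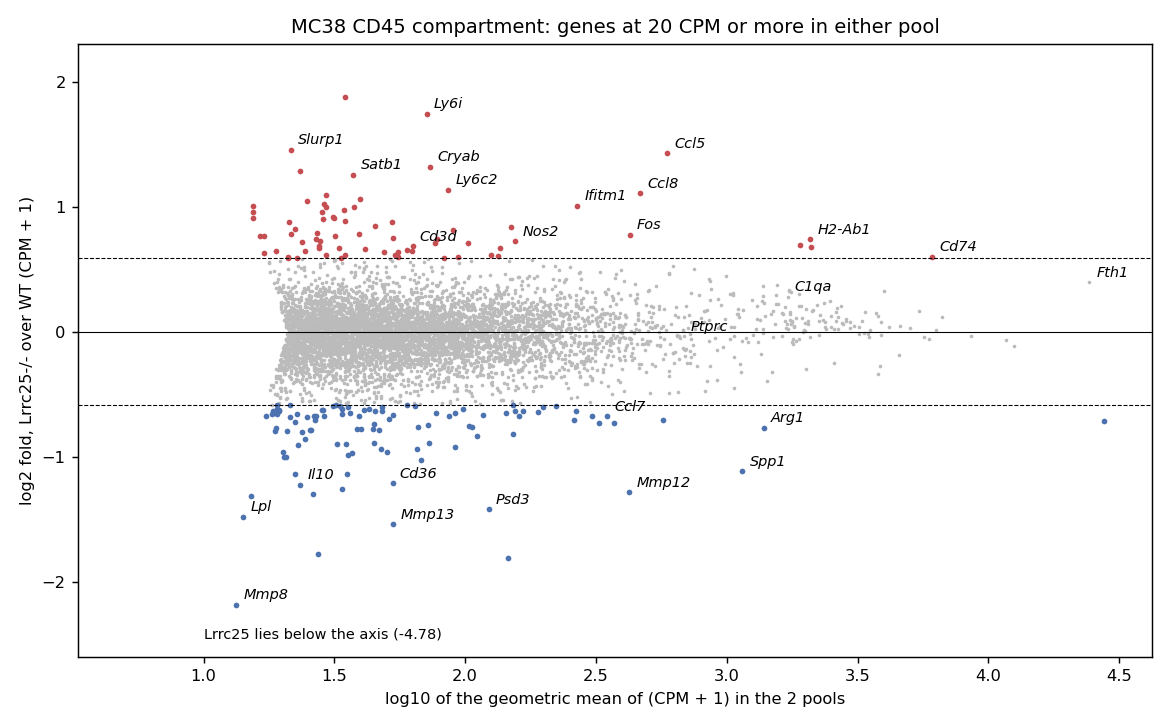
Log2 fold of Lrrc25-/- over WT against the log10 geometric mean of CPM + 1 for genes at 20 CPM or more in either pool; dashed lines mark 1.5-fold, red and blue points passed the size rule. Ccl5, Ccl8 and the MHC class II genes lie high at high expression, Spp1, Mmp12 and Arg1 lie low, and Lrrc25 is below the axis at -4.78.

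**Figure D3:**
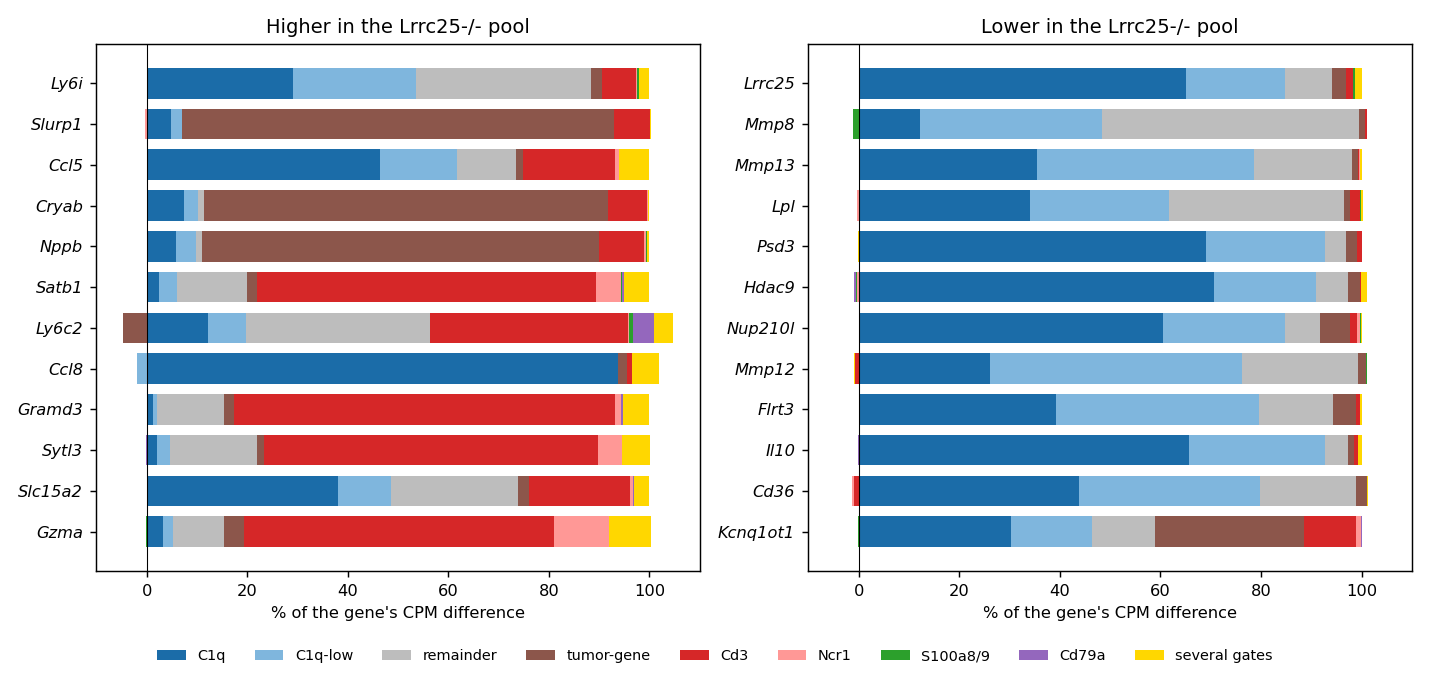
Part of each gene's CPM difference that each class contributed, as stacked percentages, for the 12 genes with the highest folds (left) and the 12 with the lowest folds (right); parts of opposite sign extend below 0 or past 100. Cd3 cells (red) fill most of the bars of Satb1, Gramd3, Sytl3 and Gzma, C1q cells (dark blue) that of Ccl8, and tumor-gene cells (brown) those of Slurp1, Cryab and Nppb.

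MHC class II genes, whose products present peptides to CD4 T cells, were higher in the compartment. Of 6 measured genes of the list of 10, 4 were higher and 0 lower (median 0.64), and the sum over the whole list went from 10165 to 15883 CPM. The beta chain gene H2-Ab1 rose from 1609 to 2684 CPM, a ratio of 1.67, 95% interval 1.66 to 1.68, and was detected in 73.2% and 84.2% of cells. Its partner H2-Aa rose from 1664 to 2657 CPM and the I-E beta chain H2-Eb1 from 1492 to 2411 CPM. Cd74, the invariant chain that chaperones class II molecules, rose from 4964 to 7513 CPM, and by 0.53 when CPM was averaged per cell, which is under the fold limit. The peptide-loading genes H2-DMa (191 to 269 CPM, 0.49) and H2-DMb1 (210.2 to 300.4 CPM, 0.51) stayed under the 1.5-fold limit in the whole compartment. The size depended on the class. In the C1q gate none of the 6 measured genes passed (median 0.52; H2-Ab1 2151 to 3225 CPM), although that gate contributed 48.8% of the H2-Ab1 difference. In C1q-low cells 7 of 7 measured genes passed, against a background of 2.06% of genes higher there, with H2-Ab1 from 1700.3 to 3615 CPM. In the remainder, the cells with few or no C1q UMIs, H2-Ab1 went from 2218 to 4338 CPM. No gate marks dendritic cells. The type 1 conventional dendritic cell list was at 165 to 212 CPM in the remainder and 215 to 201 CPM in the C1q gate. The type 2 list, which includes the class II gene H2-DMb2, was at 1017 to 1394 and 611 to 637 CPM. The migratory dendritic cell list was at 649 to 738 and 296 to 278 CPM. The part of dendritic cells was not tested. In the Ncr1 gate, of 63 and 98 cells, 3 of 6 passed (median 0.49), against 7.64% of all genes higher there. The 9 macrophage markers went from 445 to 644 CPM in that gate, and their part in this was not tested. In the S100a8/9 gate H2-Ab1 was instead at 455 to 279 CPM. This rests on 83 and 116 cells with 118806 and 193786 UMIs in all, in a gate where 12.5% of genes were called lower. The macrophage list was also lower there (1103 to 676 CPM, 1 of 9 genes at 0 in each pool), and its part in this was not tested.

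Class II transcripts were also higher in cells not known for making them. In the Cd3 gate 6 of 6 measured genes were higher (median 0.88) and the sum over the whole list went from 2986 to 5336 CPM, with H2-Ab1 from 489 to 956 CPM. The 9 macrophage markers, none of them at 0 in this gate, went from 651 to 794 CPM there. In tumor-list barcodes chosen to have no Ptprc and no C1q UMI, H2-Ab1 went from 48.7 to 119.5 CPM. The macrophage list was at 23.1 to 44.4 CPM there. Its 3 C1q genes are at 0 in each pool by that choice, so the low sum follows in part from it. The part of free RNA or of adhering macrophage material in these values was not tested.

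The promoters of class II genes hold a Y box, the CCAAT motif bound by NF-Y within the module that recruits the transactivator CIITA. They are shown because these genes moved together. The 150 bases before the RefSeq start (GRCm38) are given 5' to 3' on the gene's strand, and capitals mark ATTGG on either strand.
H2-Aa (chr17:34287824-34287973, minus strand): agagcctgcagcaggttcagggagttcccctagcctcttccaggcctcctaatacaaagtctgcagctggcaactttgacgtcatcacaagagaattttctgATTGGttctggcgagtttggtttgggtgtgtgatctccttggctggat
H2-Eb1 (chr17:34305717-34305866, plus strand): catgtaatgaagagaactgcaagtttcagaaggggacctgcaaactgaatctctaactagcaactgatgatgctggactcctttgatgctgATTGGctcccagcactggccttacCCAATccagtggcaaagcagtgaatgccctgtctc
H2-DMb1 (chr17:34153041-34153190, plus strand): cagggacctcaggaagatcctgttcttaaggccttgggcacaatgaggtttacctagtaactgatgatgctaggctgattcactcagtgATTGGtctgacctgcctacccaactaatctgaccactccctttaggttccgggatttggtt
The match nearest the upstream end lay 48 bases before the start of H2-Aa, 59 before that of H2-Eb1 (which has 2 matches) and 61 before that of H2-DMb1. ATTGG on either strand was present in the same window of 24.5% of 32851 promoters, so a match by itself describes many genes. H2-Ab1 was not among the promoters used here.

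Interferon-gamma-induced genes leaned the same way with smaller folds. All 14 measured genes of the list of 21 had positive folds (median 0.37 against -0.01 for all genes), and 3 passed the size rule. Nos2, the inducible nitric oxide synthase, rose from 119.6 to 198 CPM (ratio 1.66, 95% interval 1.61 to 1.70), and the C1q gate contributed 57.5% of this (108 to 205 CPM). Socs1, a feedback inhibitor of cytokine signalling, rose from 14.7 to 27.8 CPM. The transcription factor Irf1 rose from 108 to 164 CPM, and 40.6% of that came from tumor-gene cells (247 to 410.0 CPM). Without cells holding 3 or more tumor-list UMIs its fold was 0.55, under the limit. Cxcl9, which draws CXCR3-bearing T cells, was at 747 to 989 CPM (0.40), Gbp2 at 230.1 to 318 CPM (0.47) and Cd274, which encodes the checkpoint ligand PD-L1, at 209.6 to 281 CPM (0.42). None of these 3 passed. Among cells in no gate 6 of 14 did (Nos2, Socs1, Cxcl9, Irf1, Gbp2 and Gbp5) against 1.5% of all genes there. Of the 16 measured MHC class I genes 15 had positive folds and none passed (median 0.32; B2m 3612 to 3941 CPM). The transcript of interferon-gamma itself, Ifng, was 225 to 228 CPM in the Cd3 gate.

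Genes induced by type I interferon leaned the other way in the compartment. Of 12 measured genes of the list of 18, 0 were higher and 3 lower (median -0.40, 11 negative). These were Ifit1 (32.5 to 18.5 CPM) and Ifit2 (35.6 to 21.9 CPM; -0.57 by per-cell CPM, under the limit), which bind viral RNA or its translation machinery, and Ifi205 (84.7 to 49.6 CPM), a member of the interferon-inducible Ifi200 family of DNA sensors. Isg15, a ubiquitin-like modifier, was at 159 to 137 CPM and Ifit3 at 30.1 to 20.1 CPM. By class, 12 of 13 measured genes were negative in the C1q gate (median -0.31) and 7 of 8 in the Cd3 gate (median -0.17). In the remainder 6 were positive and 7 negative (median -0.07), and in the Ncr1 gate the 2 measured genes were positive. Within the Ifi200 gene cluster (chromosome 1, 173468485 to 174031810), examined after the values were seen, 3 of 7 measured genes passed as lower, namely Mndal (186 to 124 CPM), Ifi203 (125 to 65.6 CPM) and Ifi205, and the cluster's median was -0.56. Mndal and Ifi203 overlap in the annotation, so their counts may be split between them. The fold of Mndal was -0.59, closer to the fold limit than the shift of 0.06 under TMM scaling. It was not among the named genes run under the alternatives.

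The chemokine genes divided. Ccl5, a T cell-attracting chemokine made by T cells, NK cells and macrophages, rose from 359 to 967 CPM, a ratio of 2.69, 95% interval 2.65 to 2.73, and was detected in 29.9% and 51.4% of cells. The C1q gate contributed 46.3% of the difference (355 to 978 CPM), the Cd3 gate 18.3% (519 to 1354 CPM), and Ccl5 was also higher in C1q-low cells (423 to 1367 CPM), in the remainder (542 to 1079 CPM) and in the Ncr1 gate (88.6 to 439 CPM). It was thus higher in every class named here. Ccl8, a monocyte chemoattractant, rose from 317 to 684 CPM (ratio 2.16, 95% interval 2.13 to 2.19) and came almost wholly from the C1q gate, which contributed 93.7% (613 to 1363 CPM). In C1q-low cells Ccl8 was at 208 to 263 CPM.

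The genes beside Ccl8 on chromosome 11 went down or stayed. Ccl7, a ligand of the monocyte receptor CCR2, fell from 439 to 274 CPM (C1q gate 695 to 420.3 CPM), with a fold of -0.41 when barcodes without Ptprc were added. Ccl2 was at 682 to 532 CPM (-0.36) and Ccl12 at 320.2 to 223 CPM (-0.52). Of the 11 measured myeloid-attracting chemokine genes 10 had negative folds (median -0.34), with Ccl8 the only one called higher, and Ccl7 and Cxcl3 called lower. Cxcl3, a ligand of the neutrophil receptor CXCR2, fell from 330.3 to 212 CPM, or by 0.53 on the log2 scale at a common mix of classes. Ccl3 and Ccl4, which lie near Ccl5 on the same chromosome, did not follow it: Ccl3 was at 124 to 88.1 CPM and Ccl4 at 277 to 230.5 CPM, and in the C1q gate Ccl3 went from 129 to 70.5 CPM while in the Cd3 gate Ccl4 went from 109 to 199 CPM.

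**Figure D4:**
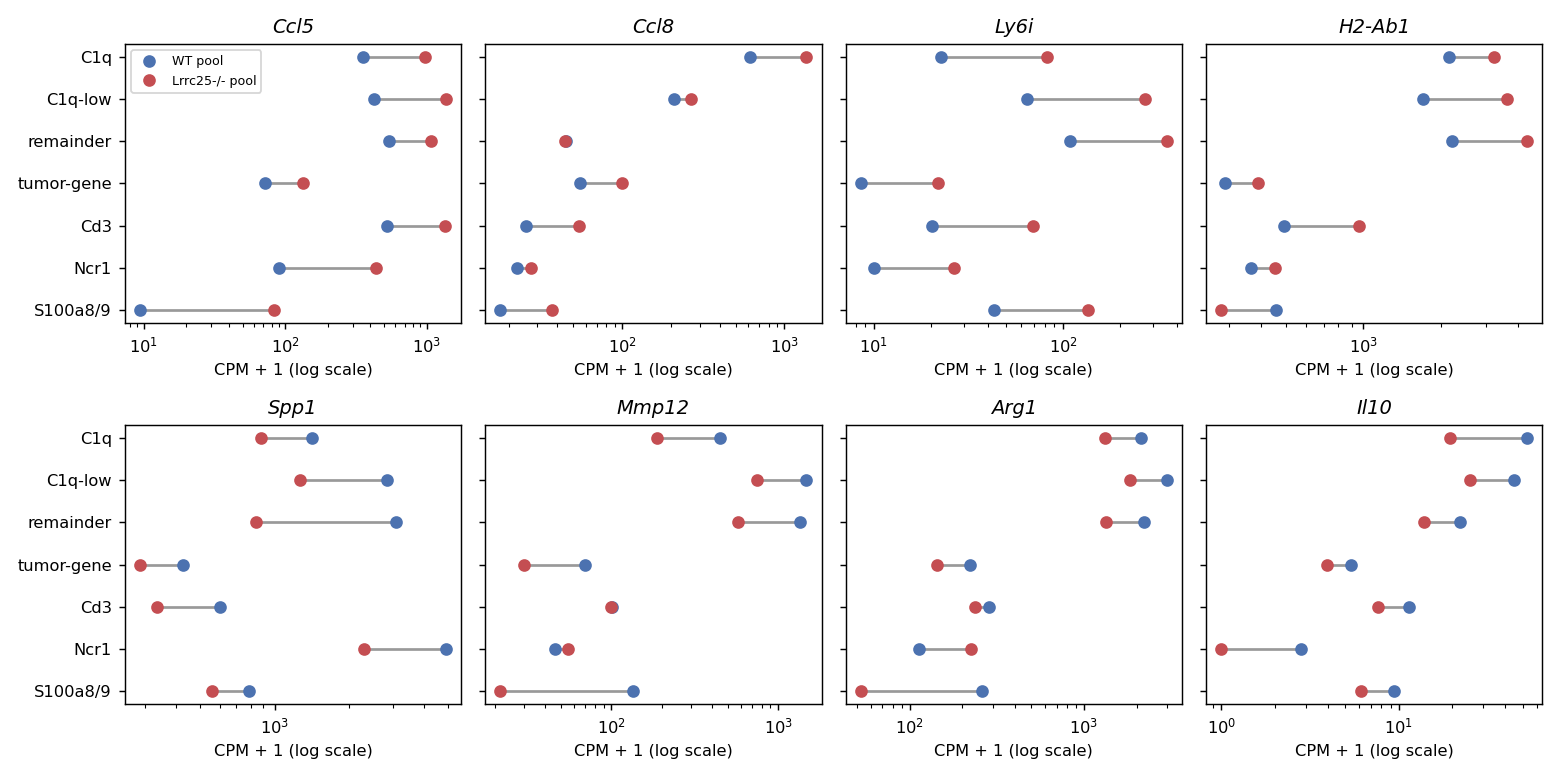
CPM + 1 on a log scale in each class for 8 genes, WT pool in blue and Lrrc25-/- pool in red. Ccl5 and Ly6i are to the right in the Lrrc25-/- pool in all 7 classes, Ccl8 is highest in the C1q class, and Spp1 is to the left in all 7; levels in the small Ncr1 and S100a8/9 classes rest on 63 to 116 cells.

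A few monocyte genes were higher. Ly6i, a Ly6 family surface protein gene, had the highest fold among named genes at 1.74 (37.9 to 129 CPM, ratio 3.40, 95% interval 3.26 to 3.56) and was detected in 9.29% and 23.1% of cells. The level was highest in the remainder (108 to 352 CPM), then in C1q-low cells (63.5 to 269 CPM), the C1q gate (21.5 to 80.9 CPM) and the Cd3 gate (19.2 to 68.7 CPM). Ly6c2, which encodes the Ly6C antigen of recruited monocytes and is also made by some CD8 T cells, rose from 57 to 126 CPM, with 39.3% from the Cd3 gate (155 to 353 CPM) and 36.6% from the remainder (173 to 365 CPM). Slpi, a secreted protease inhibitor, rose from 78.8 to 129.8 CPM, but its fold by per-cell CPM was 0.09. Of 14 measured genes of the monocyte list 3 were higher and 0 lower (median 0.23), against 1.22% of all genes higher. The list had 9 positive and 5 negative folds. In the C1q gate 4 of 12 were higher, against 0.624% of all genes, with 7 positive and 5 negative folds. The 1 called lower there was the monocyte receptor gene Ccr2, against 2.6% of all genes. Among C1q-low cells 7 of 14 were higher, against 2.06% of all genes. The membrane protein gene Ifitm1 rose from 188 to 379.6 CPM (C1q gate 88.3 to 222 CPM). Plac8, on the same list, was at 146 to 218 CPM (0.57) in the compartment and at 578 to 382 CPM in the Cd3 gate.

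The matrix protease genes Mmp8 and Mmp13 had the lowest folds among the named genes after Lrrc25. Mmp8, a collagenase of neutrophils and monocytes, fell from 27.4 to 5.24 CPM (-2.19, ratio 0.191, 95% interval 0.172 to 0.212). The remainder contributed 51.1% of this (108 to 13.6 CPM) and C1q-low cells 36.1% (49.2 to 13.3 CPM). In the S100a8/9 gate, where neutrophils are found, Mmp8 was at 118 to 201 CPM. This rests on 83 and 116 cells with 118806 and 193786 UMIs in all, in a gate where 11.5% of genes were called higher. How many cells of the gate held these Mmp8 UMIs was not examined. The collagenase gene Mmp13 fell from 89.4 to 30.1 CPM (ratio 0.336, 95% interval 0.321 to 0.352), with C1q-low cells contributing 43.3% (176 to 69.4 CPM). Mmp12, the macrophage elastase, fell from 661 to 271 CPM (ratio 0.409, 95% interval 0.403 to 0.416) and was detected in 40.3% and 28.1% of cells. It was lower in the C1q gate (447 to 188 CPM), in C1q-low cells (1476 to 746 CPM) and in the remainder (1343 to 572 CPM), and was level in the Cd3 gate (99.7 to 98.1 CPM).

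The decrease was not shared by the whole list. Of 11 measured matrix protease and inhibitor genes 4 were lower and 0 higher, while the list's median was 0.03. Mmp14, a membrane-bound collagenase, was at 244 to 255 CPM and the inhibitor Timp1 at 43.7 to 53.4 CPM. The other gene that fell was Ctsk, the collagen-degrading cathepsin K (27.7 to 13.3 CPM). Its 5 richest cells held 29.3% and 54.6% of its UMIs, and without them it was at 19.6 to 6.05 CPM. Mmp13, Mmp12 and Mmp8 lie in 1 cluster on chromosome 9 (7272514 to 7568485), of which all 3 measured genes fell.

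AP-1 binding sites are a known feature of several Mmp promoters, and the 3 promoters are shown to compare that element among genes that fell together. The 150 bases before the RefSeq start (GRCm38) are given, with capitals for the letters TGANTCA, which read the same on both strands.
Mmp13 (chr9:7272364-7272513, plus strand): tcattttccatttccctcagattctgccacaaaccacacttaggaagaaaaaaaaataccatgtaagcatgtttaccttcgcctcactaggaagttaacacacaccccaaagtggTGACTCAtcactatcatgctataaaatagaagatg
Mmp12 (chr9:7347224-7347373, plus strand): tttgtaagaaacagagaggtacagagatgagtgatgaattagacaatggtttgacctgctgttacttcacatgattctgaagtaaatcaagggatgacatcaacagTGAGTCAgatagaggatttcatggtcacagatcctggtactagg
Mmp8 (chr9:7558279-7558428, plus strand): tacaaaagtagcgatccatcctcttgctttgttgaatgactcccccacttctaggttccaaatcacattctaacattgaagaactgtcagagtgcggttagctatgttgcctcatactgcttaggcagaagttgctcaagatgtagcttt
The letters were found 35 bases before the start of Mmp13 and 44 bases before that of Mmp12, for the start chosen among 2 in the table because it holds the match. They were not in this window of Mmp8. They were present in 4.24% of 32851 promoters of the same length. The AP-1 subunit genes Fos (324 to 556 CPM, 0.78) and Jun (278 to 386 CPM, 0.47) were both higher, of which Fos passed.

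Arg1, Spp1 and Il10, genes linked to the repair state of macrophages, fell. Arg1, the arginase that competes with Nos2 for arginine, fell from 1804 to 1059.8 CPM (-0.77, ratio 0.587, 95% interval 0.582 to 0.592) and was detected in 69.9% and 58.1% of cells. It was lower in the C1q gate (2128 to 1326 CPM) and in C1q-low cells (2979 to 1823 CPM). Spp1, which encodes osteopontin, fell from 1688 to 777 CPM (-1.12) and was detected in 64.0% and 53.9% of cells. C1q-low cells contributed 43.6% of it (2841 to 1270.4 CPM) and the remainder went from 3098 to 840.4 CPM. Il10, an anti-inflammatory cytokine gene, fell from 34.7 to 14.3 CPM (ratio 0.412, 95% interval 0.384 to 0.442), with 65.7% from the C1q gate (52 to 18.4 CPM). Of the 11 measured alternative activation genes 3 were lower and 0 higher (median -0.37, with 8 negative and 3 positive folds). The 3 were Arg1, Il10 and the lectin gene Mgl2 (65.6 to 40.9 CPM; -0.50 without the Ptprc gate, under the limit). The mannose receptor gene Mrc1 was at 337 to 252 CPM (-0.42).

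Within the lipid-associated macrophage list the genes went in different directions. Of 16 measured, 4 were lower and 0 higher in the compartment (median -0.26): Spp1, the fatty acid transporter Cd36 (79.4 to 33.6 CPM, ratio 0.424, 95% interval 0.405 to 0.443), lipoprotein lipase Lpl (22.7 to 7.50 CPM) and Gpnmb (58.7 to 37.5 CPM; -0.54 at a common mix of classes). Trem2, the receptor that gives the state its name, was at 214 to 229 CPM and Apoe at 2466 to 2818 CPM. Fabp5, a fatty acid carrier, was higher in the C1q gate (633 to 1119 CPM, 0.82) and stayed under the limit in the compartment (511 to 704 CPM). Among cells in no gate all 17 measured genes had negative folds and 6 passed, against 2.11% of genes lower there. Fth1, the ferritin heavy chain, had the largest CPM increase of any gene and was under the fold limit (21117 to 27783 CPM, 0.40; C1q gate 24972 to 36414 CPM). Among named genes the largest CPM decreases were those of Tmsb4x (thymosin beta 4, 13021 to 11996 CPM), Spp1 and the CXCR2 ligand gene Cxcl2 (4252 to 3367 CPM).

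Inflammatory genes were lower in a few members in the compartment. Il1a fell from 137 to 80.6 CPM and Ptgs2, the inducible prostaglandin synthase COX-2, from 237 to 152 CPM, the only 2 of 10 measured genes to pass (list median -0.17). At a common mix of classes Ptgs2 was at -0.55, under the limit. Il1b was at 1861 to 1736 CPM and Tnf at 58.4 to 43.5 CPM. The direction of this list differed by class. In the C1q gate all 10 measured genes had negative folds (median -0.34), and in the Cd3 gate all 9 had positive folds (median 0.51). The complement genes split: Cfb of the alternative pathway rose from 43.9 to 66.9 CPM, and the C3a receptor gene C3ar1 (178 to 113 CPM) fell. Without the Ptprc gate C3ar1 was at -0.48, and Cfb was at 0.55 by per-cell CPM. The gate genes themselves were at 1548 to 1881 CPM for C1qa, 1705 to 2105 CPM for C1qb and 1241 to 1512 CPM for C1qc. Ptprc was at 691 to 674 CPM (-0.04). Heat shock genes Hspa1b (43.2 to 22.6 CPM) and Hspa1a (92.5 to 54.6 CPM), both chaperones of the Hsp70 family with nearly identical sequences, fell and their counts may be split between the copies. None of 16 glycolysis, 20 oxidative phosphorylation, 16 proliferation, 11 antioxidant or 11 phagocytic receptor genes passed in either direction (medians -0.03, 0.07, -0.08, -0.07 and -0.05).

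The lower genes with the lowest folds also included some with no listed role here. Psd3, an exchange factor for the small GTPase ARF6, fell from 200.5 to 74.2 CPM, mainly in the C1q gate (355 to 136 CPM). The histone deacetylase gene Hdac9 fell from 23 to 8.66 CPM, the cell adhesion gene Flrt3 from 51.2 to 20.8 CPM, Nup210l from 40.2 to 15.7 CPM and the long non-coding RNA Kcnq1ot1 from 51.5 to 22.9 CPM. Within the C1q gate, after Lrrc25, the lowest folds were those of Cc2d2b (29.8 to 5.93 CPM), Fam171b (23.4 to 6.98 CPM), Rccd1 (22.8 to 6.88 CPM) and Igf1 (26.6 to 8.41 CPM), the last a growth factor of tissue macrophages. The highest were those of Ly6i, Ccl5, Ifitm1, Ly6c2 (11.3 to 30.0 CPM) and Ccl8.

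**Figure D5:**
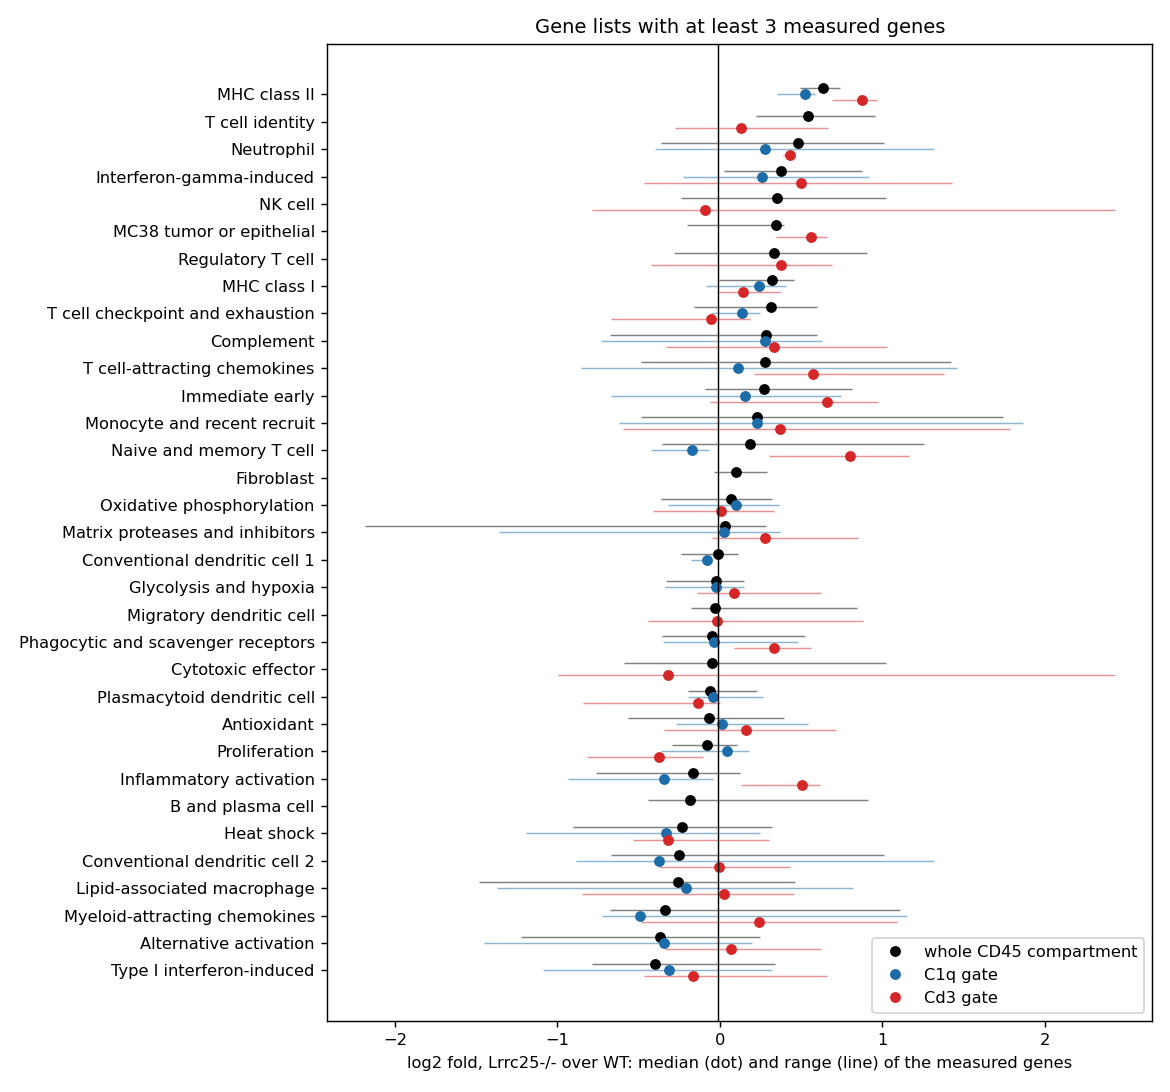
Median (dot) and range (line) of the log2 folds of the measured genes of each list in the whole compartment (black), the C1q gate (blue) and the Cd3 gate (red). MHC class II is highest at 0.64 in the compartment, type I interferon-induced lowest at -0.40, and T cell identity falls from 0.55 in the compartment to 0.13 inside the Cd3 gate.

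T cell genes were higher in the compartment, together with the share of Cd3 gate cells. Of 17 measured T cell identity genes 6 were higher and 0 lower (median 0.55). Cd3d, a subunit of the T cell receptor complex, rose from 48.7 to 78.7 CPM (ratio 1.62, 95% interval 1.55 to 1.69). The adhesion receptor Cd2 (29 to 50.6 CPM), the scavenger receptor family member Cd6 (10.1 to 20.6 CPM), the costimulatory receptor Cd28 (23.3 to 40.4 CPM) and the adaptor Skap1 (38.1 to 59.9 CPM) also rose. With the classes held at a common mix, Cd3d, Cd2, Cd28 and Skap1 came to folds of 0.24, 0.42, 0.42 and 0.31, all under the 1.5-fold limit, while Cd6 stayed past it at 0.59. Within the Cd3 gate 1 of 22 identity genes was higher and the median was 0.13. Also under the limit at the common mix were Il2ra (18.5 to 29.5 CPM, 0.36 at the common mix), Tnfrsf4 (19.9 to 38 CPM, 0.51), Tnfrsf18 (22.7 to 35.3 CPM, 0.27), Lag3 (16.1 to 24.8 CPM, 0.24) and Rgs16 (16.2 to 24.8 CPM, 0.26), which were all called higher in the compartment. Of these, Il2ra, Tnfrsf4 and Tnfrsf18 are highly expressed in regulatory T cells, and Lag3 is an inhibitory receptor.

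The makeup of the Cd3 gate differed. Cells with Cd8a or Cd8b1 and no Cd4 UMI were 71.2% of the WT and 60.6% of the Lrrc25-/- gate (713 and 1065 cells). Cells with Cd4 alone were 8.09% and 11.3% (81 and 198), and cells with none of these UMIs 18.1% and 25.8% (181 and 454). Foxp3, the master regulator of regulatory T cells, was detected in 8.09% and 9.73% of the gate and rose from 22.5 to 35 CPM. It was 1 of 3 genes higher of 10 measured on the regulatory T cell list (median 0.38), the others being Izumo1r (14.8 to 23.4 CPM), a marker of these cells, and the growth factor gene Areg (104 to 168 CPM). A UMI of Mki67 or Top2a, genes of dividing cells, was found in 49.9% and 39.0%. Median depth in the gate was 4809 and 4213 UMIs, and the part of depth in these shares was not tested.

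In the Cd3 gate, of 14 measured cytotoxic effector genes 5 were lower, 1 was higher and 8 passed neither way (median -0.32; 9 negative and 5 positive folds). Gzmf fell from 2584 to 1391 CPM, Gzmc from 1377 to 902 CPM, Gzmd from 680.0 to 340.0 CPM and Gzme from 385 to 195 CPM, all serine proteases encoded side by side on chromosome 14 with similar sequences, so reads may be split among them. Prf1, which encodes the pore-forming perforin, fell from 408 to 227 CPM. Gzmb was at 738 to 596 CPM. Gzma, a granzyme encoded apart from these on chromosome 13, rose instead from 23.2 to 129.5 CPM, with a UMI in 21 of 1001 and 139 of 1758 cells. Gzmg, not on the list, went from 395 to 103 CPM in 78 and 65 cells, of which 1 cell alone held 519 of 2265 WT UMIs. In the whole compartment, of 12 measured cytotoxic genes 1 was lower (Gzme, 78 to 51.4 CPM; -0.12 by per-cell CPM) and 1 higher (Gzma, 19.3 to 40.3 CPM, ratio 2.09, 95% interval 1.96 to 2.23).

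Naive and memory genes were higher in the Cd3 gate. Of 9 measured genes 6 were higher and 0 lower (median 0.80). Among them were the transcription factors Tcf7 (18.5 to 42.6 CPM), Lef1 (42.2 to 74.2 CPM) and Satb1 (151 to 309.7 CPM) and the homing receptors Ccr7 (128 to 238 CPM) and S1pr1 (13.1 to 23.8 CPM). The exhaustion regulator Tox fell from 296 to 186 CPM, the only 1 of 11 checkpoint and exhaustion genes to pass. All 16 proliferation genes had negative folds (median -0.37) and 2 passed, Top2a (462 to 297 CPM) and Cenpf (132 to 74.5 CPM). In the compartment, Satb1 (23.2 to 56.8 CPM), Gramd3 (19.1 to 42 CPM) and Sytl3 (26.4 to 56 CPM) were among the highest folds, with the Cd3 gate contributing 67.5%, 75.9% and 66.4%.

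Genes of gamma-delta and type 17 T cells included the highest fold within the Cd3 gate. Of 4 measured genes of that list of 13, 3 were higher and 1 lower (median 2.14). Il17a, the cytokine of these cells, rose from 3.83 to 40.2 CPM, which was 22 UMIs in 4 cells against 402 UMIs in 44 cells, with 240 of the 402 in 5 cells. The IL-23 receptor gene Il23r rose from 7.67 to 33.1 CPM (13 and 82 cells). Trdc, the constant segment of the delta chain, rose from 5.23 to 29.6 CPM (12 and 70 cells, 1.20% and 3.98% of the gate). Tcrg-C2, a gamma chain constant segment, fell from 55.9 to 17.1 CPM. The integrin gene Itgae, which encodes CD103, rose from 5.23 to 30.4 CPM (29 and 149 cells). The peptide transporter Slc15a2 rose from 11 to 40.5 CPM. At the other end were Galnt18 (131 to 25.9 CPM, in 149 and 71 cells), Lrrc9 (23.7 to 4.90 CPM), Osr2 (21.4 to 5.10 CPM) and the hypoxia-responsive factor Epas1 (72.2 to 23.4 CPM).

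Immediate early genes, which respond within minutes to activation and also to tissue dissociation, were higher in the Cd3 gate: 9 of 15 measured were called higher (median 0.66), among them Jun (169 to 316 CPM), Junb (250.4 to 414 CPM), Fos (146 to 258 CPM) and Dusp1 (93.1 to 166 CPM). In the C1q gate 2 were higher and 1 lower. In the compartment Fos and the growth-arrest gene Btg2 (66.7 to 118 CPM) rose, and Btg2 was detected in 22.7% and 41.2% of cells. Both also passed in tumor-list barcodes without Ptprc. The part of dissociation or sample handling in these values was not tested.

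The smaller gates add few firm values. In the Ncr1 gate 305 genes were higher (7.64%) and 201 lower (5.03%) of 3993, a larger share than in the larger gates, on 63 and 98 cells. Ccl5 went from 49 UMIs in 11 cells to 380 UMIs in 36 cells, and Cd7, a receptor of lymphocytes, from 5 to 49 UMIs. Ccl2 went from 163 to 25 UMIs, but 86 of the 163 were in 1 cell. Of the 15 NK markers, which include the gate gene Ncr1, none was at 0 in this gate. Their sum was 5044 to 5534 CPM, with the 9 macrophage markers at 445 to 644 CPM. Spp1 was at 4909.7 to 2299 CPM in this gate, with 5 cells holding 1436 of its 2714 UMIs in the WT pool and 1294 of 1991 in the Lrrc25-/- pool. In the S100a8/9 gate (83 and 116 cells, median 1139 and 1425.5 UMIs) 121 genes were higher (11.5%) and 132 lower (12.5%) of 1056. Granule genes of immature neutrophils were found almost wholly in the Lrrc25-/- pool: Ngp had 3 and 1288 UMIs and Camp 1 and 697 UMIs, but 1 cell held 796 of the Ngp and 510 of the Camp UMIs. S100a8 and S100a9 were 66.7 to 101 CPM and 62.2 to 87.3 CPM in the compartment, and without their 5 richest cells 57.0 to 53.5 CPM and 51.4 to 51.7 CPM. Among Cd79a cells, 928 of 994 Slpi UMIs of the Lrrc25-/- pool were in 1 cell. Jchain, the joining chain of secreted antibodies, was 10.3 to 20.2 CPM in the compartment, and 0.63 to 3.69 CPM without its 5 richest cells. Its direction turned with Ptprc at 2 or more UMIs, to a fold of -1.44.

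Some differences ran through every large class and through cells without Ptprc. Tumor-list barcodes with no C1q and no Ptprc UMI were summed as an outside reference. Of the 76 higher compartment genes 26 were measured there and 17 were called higher (1.97% of all genes measured there). Of the 107 lower genes 56 were measured and 20 were called lower (2.82%). Past 1.5-fold in the C1q gate, the Cd3 gate, the no-gate cells and these barcodes were 5 higher genes, chosen after the values were seen: Ccl5, Fos, Btg2, the circadian gene Per1 (19.4 to 38.6 CPM) and Ass1, argininosuccinate synthase (111 to 199 CPM). There were 7 such lower genes, namely Ifi203, Rbis (148 to 82.4 CPM), Lrif1, Kcnq1ot1, Ddx60 (32 to 17.2 CPM), mt-Atp8 (89.9 to 46.4 CPM) and mt-Nd3 (271 to 76.6 CPM). Of 13 mitochondrial protein genes 4 were lower in the compartment (mt-Nd2, mt-Nd3, mt-Nd4l and mt-Atp8), while mt-Co1 was at 6271 to 6343 CPM. The transcript Gm42418, which overlaps ribosomal RNA repeats, was at 35356 to 21497 CPM. Differences of this kind are shared by immune and tumor barcodes of the same library, and the part of library preparation in them was not tested.

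Slurp1, Cryab and Nppb were high in the compartment through tumor-gene cells. Slurp1 went from 12.1 to 34.8 CPM, the small heat shock protein gene Cryab from 45.5 to 115 CPM and the natriuretic peptide gene Nppb from 14 to 35.5 CPM, with tumor-gene cells contributing 85.8%, 80.3% and 78.8%. Tumor-list barcodes without Ptprc showed them as well, at 83.2 to 249 CPM, 311 to 696 CPM and 97.5 to 175 CPM. The tumor list itself (13 genes) was at 247 to 254 CPM in the compartment, 28.2 to 34.5 CPM in the C1q gate and 129 to 161 CPM in the Cd3 gate.

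Within 5 Mb of Lrrc25 on chromosome 8, 49 genes were measured, of which 1 was higher and 2 lower (6.12%, against 2.94% of all genes in either direction), with a median of 0.08. The higher one was Ssbp4 (21.7 to 41.8 CPM, 0.92), 0.00728 Mb from Lrrc25, and the lower ones were Psd3 and Lpl (22.7 to 7.50 CPM). In the CD45 compartment of the B16F10 pools, Ssbp4, Psd3 and Lpl had folds of -0.01, -0.02 and -0.24.

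The same rule was applied to the CD45 compartment of the B16F10 melanoma pools (9251 cells, day 14, 1 pool of 3 mice per genotype), with no sample in common. A single Ptprc UMI admitted 51.8% of the WT and 45.6% of the Lrrc25-/- cells of that compartment, more than in MC38. Of the kept B16F10 barcodes, 35.9% and 46.6% had a Ptprc UMI. The part of tumor cell RNA in the B16F10 values was not tested. There 4.83% of 5048 genes were higher and 0.931% lower. Of 4492 genes measured in both models, 111 (2.47%) were called in MC38 and 249 in B16F10. The models gave the same direction for 16 genes (13 higher, 3 lower), which is 14.4% of the MC38 calls and 6.43% of the B16F10 calls, and the opposite direction for 16. Those higher in both included Ccl5 (B16F10 752 to 1166 CPM), Ifitm1 (81.6 to 161 CPM), Gzma (41.4 to 69.2 CPM), Ccr7 (80.7 to 156 CPM) and Slpi (119 to 289 CPM). Those lower in both were Lrrc25, whose fall follows from the genotype, Ctsk and the immunoglobulin gene Ighg2b. The shared count also includes the immunoglobulin gene Ighg1. The opposite count includes Igha, mt-Nd2 and mt-Nd3. Arg1, Spp1 and Il10 went in opposite directions: Arg1 was 205 to 573 CPM, Spp1 524 to 1085 CPM and Il10 123 to 214 CPM in B16F10. Mgl2 was lower in both, at -0.67 in MC38 and -0.42 in B16F10, where it did not pass. The Mmp cluster that fell in MC38 had folds of -0.14 (Mmp13), -0.04 (Mmp12) and 0.42 (Mmp8) in B16F10. H2-Ab1 had 0.45 and Ccl8 -0.44 there. The difference between the models was not tested, since each rests on 1 pool per genotype.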

How the data were processed

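The authors deposited unnormalized counts, whole numbers of UMIs for each gene in each barcode. The genome was mm10 (per the submitters' processing notes). Aligner, counter and cell calling were not given in the sources used here. Gene positions came from GENCODE M21 (31411 of 32285 identifiers with the same name) and promoters from RefSeq (GRCm38). Counts were summed per pool and class, scaled to CPM and compared by the size rule in Python 3.11.15 (numpy 2.4.6, pandas 2.3.3, scipy 1.17.1, matplotlib 3.10.9), tested on simulated data. TMM factors came from edgeR 4.0.16 (R 4.3.3). No doublet caller was run, and cells in several gates were set apart. Named were Lrrc25, Ptprc, the gate genes, the 12 highest and 12 lowest folds and the 5 largest CPM differences each way. Also named were the 5 highest and lowest folds per gate and members of lists. Antigen receptor, Xist, Tsix, Y-linked, mitochondrial, ribosomal and predicted genes were left out of these rankings. Others are marked as chosen after their values were seen. The members and lists were chosen with earlier results of these data known. The split of no-gate cells, the C1q bins, the subsets of the Cd3 gate, the counts of UMIs per cell, the gene clusters and 2 alternatives were added after seeing the data. Alternatives changed scaling, filters, pseudocount, depth minimum, the Ptprc gate and gate cuts. Some genes counted in the lists are not reported by name here.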

Additional observations from a re-analysis of the deposited data

Results flagged for a closer look

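Leaving out antigen receptor and mitochondrial genes, 13 genes passed the size rule in the CD45 compartments of both tumor models in opposite directions. Each value below is the log2 fold (Lrrc25-/- over WT) in MC38 minus that in B16F10, and the difference was not tested, since each model has 1 pool per genotype. Macrophage genes lower in MC38 and higher in B16F10 were Arg1 at -2.25 (B16F10 205 to 573 CPM), Spp1 at -2.17 (524 to 1085 CPM), Cd36 at -2.06 (106 to 191 CPM) and Il10 at -2.02 (123 to 214 CPM). Inflammatory genes of the same kind were Ptgs2 at -1.90 (54.9 to 133 CPM), Cxcl3 at -1.85 (492 to 1142 CPM), Ifi205 at -1.83 (17.3 to 37.3 CPM) and Il1a at -1.46 (156 to 254 CPM). The secretory pathway kinase gene Fam20c stood at -2.10 (MC38 47 to 24.7 CPM, B16F10 24 to 56.3 CPM), the Mediator kinase gene Cdk8 at -1.73 (332 to 203 CPM, B16F10 54.3 to 111 CPM) and Ccdc162 at -1.27 (32.5 to 19.9 CPM, B16F10 27.8 to 42.5 CPM). Higher in MC38 and lower in B16F10 were Jchain at 2.33 (B16F10 164 to 60.7 CPM), whose 5 richest cells held 93.8% of its UMIs in the WT and 81.7% in the Lrrc25-/- MC38 pool and whose MC38 fold turned to -1.44, the B16F10 direction, with Ptprc at 2 or more UMIs, and Cryab at 2.20 (B16F10 148 to 80.4 CPM), which tumor-gene cells carried in MC38.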

How the results depend on the processing

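No paired analysis was possible because each group is 1 library and no replicate number pairs the pools, and for the same reason no library could be left out. Of 68 named genes past the size rule, 42 kept their direction and their side of the rule under every alternative run for them. Jchain alone reversed, to -1.44 with Ptprc at 2 or more UMIs. The others lost the call under at least 1 setting. With the classes at a common mix 14 lost it, without the Ptprc gate 11, and 6 each with Ptprc at 2 or more UMIs and with the mean of per-cell CPM. TMM scaling removed 4, leaving out cells in several gates or cells with tumor-list UMIs 3 each, and a minimum of 1500 UMIs 1. The counts of called genes moved by over 1.5 times without the CPM filter, to 198 higher and 377 lower in the compartment, 151 and 467 in the C1q gate, and 424 and 479 in the Cd3 gate. The mean of per-cell CPM gave 154 higher in the compartment and 269 lower in the Cd3 gate, and no Ptprc gate gave 120 higher in the compartment. Higher calls were 41.5% of all calls as reported, 57.1% with TMM scaling, 53.8% with per-cell CPM, 50.2% with no Ptprc gate and 33.1% at the common mix. The ratio of C1q gate shares was 0.948 with Ptprc at 2 or more UMIs, 0.893 for cells thinned to 1000 UMIs, 0.914 with lower cuts on C1q and S100a8/9, 1.78 with higher cuts, 1.01 with each gate counted on its own and 1.10 with no Ptprc gate, so it has no stable direction. The Cd3 ratio was 1.82 with no Ptprc gate and the S100a8/9 ratio 1.91 at 1500 UMIs or more. With 5 CPM as pseudocount 62 genes were higher and 83 lower. Leaving out cells with tumor-list UMIs gave 83 and 133, and leaving mitochondrial genes, Gm42418 and AY036118 out of the total gave 69 and 122, both chosen after seeing the data. The number of cells limits the Ncr1, S100a8/9 and Cd79a gates, of 7 to 116 cells a pool, where single cells set some values, and depth was a median of 1139 and 1425.5 UMIs in the S100a8/9 gate.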
